A study of Sus scrofa with 12 samples.

Results

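The genes described here encode the machinery that carries proteins and membrane between the endoplasmic reticulum (ER), the Golgi apparatus and the endosomes, as read in the skeletal muscle of piglets by Affymetrix arrays. They were chosen by symbol alone, as the genes whose name starts with SEC and a digit, COPA, COPB, COPE, COPG, COPZ, TMED, ARF and a digit, RAB and a digit, or VPS. This took 140 probe sets (sets of short probes that read 1 transcript), which stand for 87 of the 6765 genes that have a single symbol on the array. Each gene was followed through the probe set with the highest mean log2 signal. A further probe set listed against more than 1 gene was left out.

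The 12 arrays hold 3 biological replicates of whole muscle at each of 4 ages, within 24 hours of birth (day 0) and at 7, 14 and 21 days. The labels name no treatment, breed, muscle or sex, and they do not say whether replicates came from different litters. In bulk tissue, fewer cells of a type and less RNA per cell cannot be told apart. Changes are log2 differences in signal between the means of 2 ages, ± SE, with 3 arrays per age, and adjusted p-values are limma's after Benjamini-Hochberg adjustment over the 14399 probe sets tested. A gene "rose" or "fell" where that p was under 0.05. The number of arrays limits the precision. Signals of different probe sets are not on a common scale, so each gene is set only against itself at other ages.

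Proteins for secretion or for membranes enter the ER through the SEC61 channel. COPII-coated vesicles, built from SEC23, SEC24, SEC13 and SEC31, take them to the Golgi, and COPI-coated vesicles, built from the COP subunits, carry escaped proteins and receptors back. ARF and RAB proteins are GTPases that recruit coats and tethers to a given membrane, and most VPS proteins belong to sorting and tethering complexes of endosomes and lysosomes. In muscle fibres the route also supplies the surface membrane, the secreted matrix and the stores of glucose transporter.

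Of the 87 genes, 80 were bright enough to be tested. The other 7 were SEC14L2, RAB15, RAB26, RAB27B, RAB19, VPS37D and VPS53, whose signals lay between 2.6 and 134.8 on the 12 arrays, and nothing is said of their change. Over the 4 ages, 6 of the 80 (7.5%) changed in the limma F test, against 11.2% of the 5296 genes tested and 8.88% of the probe sets. They were COPZ1 and RAB3D, with adjusted p-values of 0.0106 and 0.00939, RAB1A at 0.0254, TMED4 at 0.0418, TMED7 at 0.044 and SEC61A1 at 0.0458. In that test vesicle traffic genes were called no more often than genes in general.

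**Figure D1:**
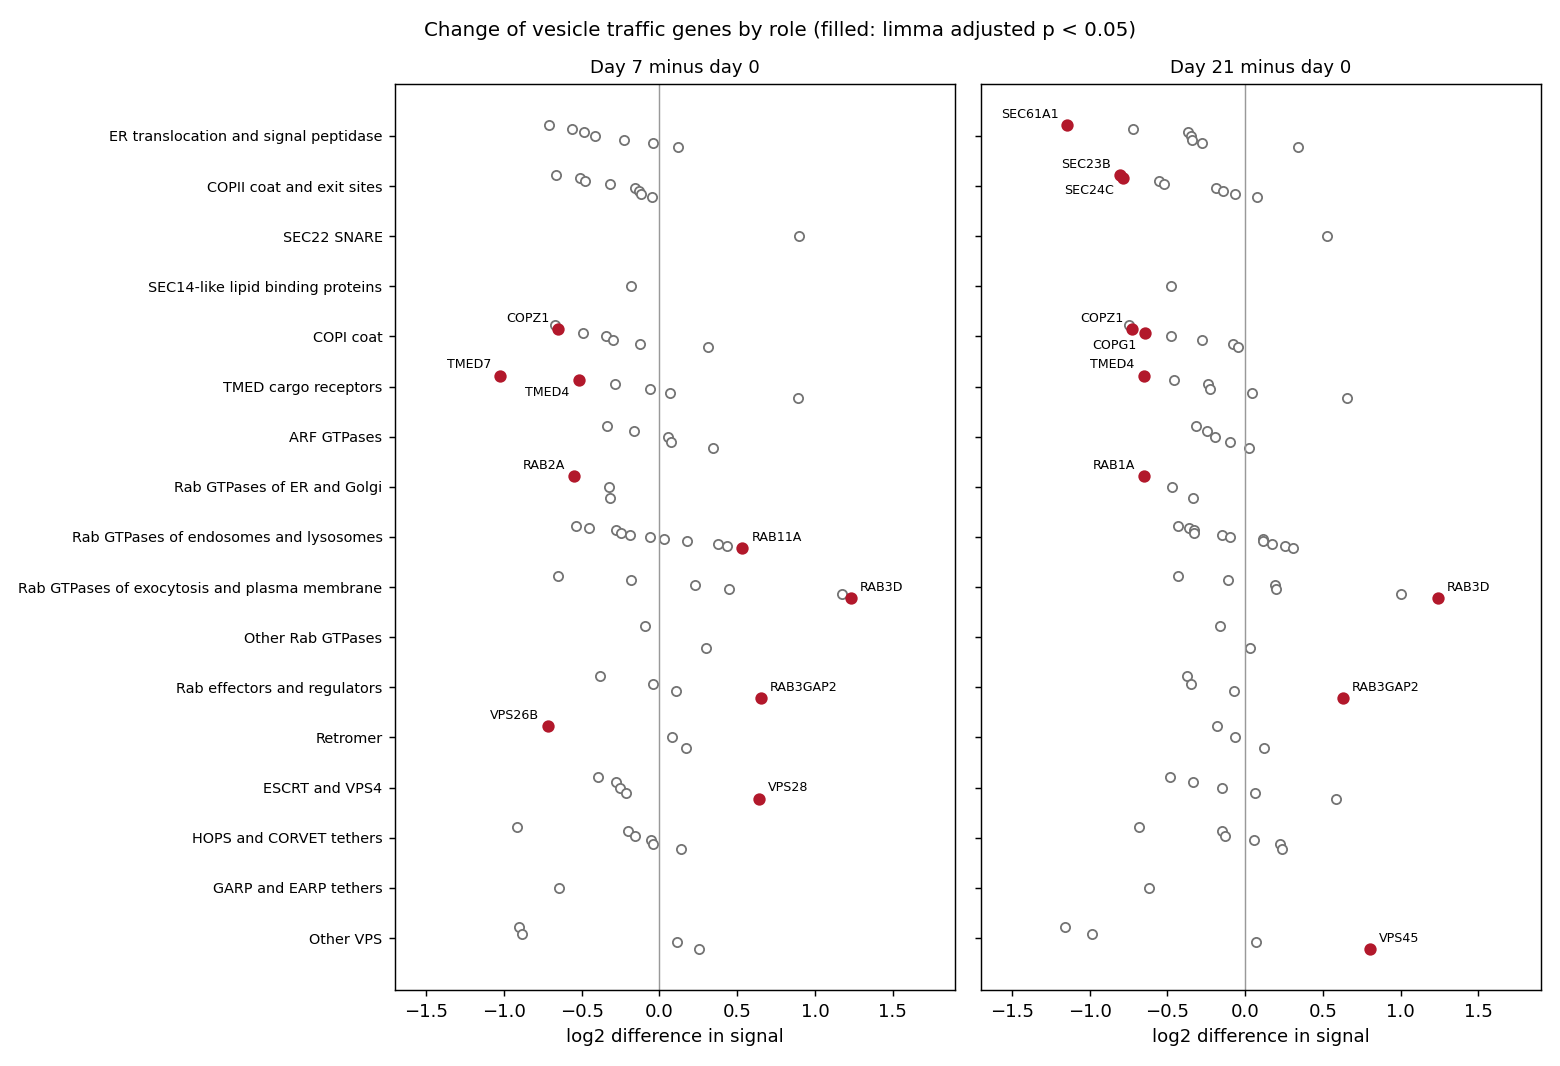
Log2 difference in signal of the 80 tested genes (points), by role, for day 7 minus day 0 (left) and day 21 minus day 0 (right), with 3 arrays per age. Filled points have a limma adjusted p under 0.05. In the right panel all 7 filled points below 0 lie in the rows for ER translocation, COPII, COPI, TMED and the Rab GTPases of ER and Golgi.

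Between birth and day 21, 7 genes fell and 3 rose. The falls were 8.75% of the 80 genes, against 7.10% of all genes and 4.90% of probe sets, and the rises 3.75%, against 7.36% and 6.61%. All 7 falls were in genes of entry into the ER or of the step between ER and Golgi, namely SEC61A1, SEC23B, SEC24C, COPZ1, COPG1, TMED4 and RAB1A, while the 3 rises were in RAB3D, VPS45 and RAB3GAP2. Taking ER translocation, COPII, COPI, TMED and the ER and Golgi Rabs as a single arm, 27 of its 31 tested genes had a log2 difference below 0, with a median of -0.35. Left out of this arm were SEC22C, at 0.53, and the 5 ARF genes, with a median of -0.19 and 1 of them above 0. Of the 26 tested genes of endosomes and lysosomes (endosomal Rabs, retromer, ESCRT, HOPS, CORVET and GARP), none passed, 15 were below 0 and the median was -0.11. Over all genes the median was -0.02. At day 7, 27 of the 31 genes and 17 of the 26 were below 0. Their medians were then -0.32 and -0.18, against -0.04 over all genes. These arms were merged after the values were seen, and the difference between them was not tested. In the list of other pathway genes, given further below, falls were not confined to the early route. There CLTC, VAMP2, AP3M1 and AP1B1, of later steps, fell beside GBF1, SURF4 and BET1L of ER and Golgi.

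The largest fall by day 21 was in SEC61A1, the pore-forming subunit of the channel into the ER. SEC61A1 read 1035, 1078 and 1032 on the day 0 arrays, 764, 485 and 707 at day 7, 888, 477 and 519.6 at day 14, and 398, 562 and 478 at day 21. The day 21 arrays all lay below the day 0 arrays, and SEC61A1 fell by 1.14 ± 0.25 (limma adjusted p = 0.0119). A second tested probe set for SEC61A1 differed by -0.26 ± 0.27 (limma adjusted p = 0.584).

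The 2 small subunits of the channel did not pass the threshold. SEC61B read 1163, 1674 and 1261 at day 21, against 1973, 2357 and 2361 at day 0, a difference of -0.72 ± 0.25 (limma adjusted p = 0.0749). For SEC61G the values were 6368, 5368 and 6132 at day 21, against 6657, 8751 and 7411 at day 0 (-0.35 ± 0.16, limma adjusted p = 0.188). In both genes the 2 ages did not overlap. SEC63 and SEC62 serve proteins that enter the channel after their synthesis. SEC63 differed by -0.27 ± 0.16, and SEC62 by 0.34 ± 0.14, with 1656, 1962 and 1944 at day 21 against 1467, 1463 and 1448 at day 0 (limma adjusted p = 0.284 and 0.14). Other tested probe sets of SEC63 differed by 0.11 ± 0.18 and 0.0035 ± 0.34 (limma adjusted p = 0.748 and 0.996). The first of them had a mean signal of 999, against 1025 for the brightest.

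In the COPII coat, 2 of 8 tested genes fell and none rose. SEC24C, a subunit that binds cargo, read 973, 1590.1 and 945 on the day 0 arrays, 737, 669.5 and 739 at day 7, 711, 817 and 859 at day 14, and 699, 595 and 689 at day 21. Day 0 replicate 2 was the highest of the 12, and the other day 0 arrays also lay above all 9 later ones. SEC24C fell by 0.78 ± 0.20 (limma adjusted p = 0.026), and without day 0 replicate 2 the difference was -0.54 (limma adjusted p = 0.0739).

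SEC23B, which activates the coat's GTPase, was read at 513, 529.9 and 459.5 at day 0, at 412, 459.5 and 475 at day 7, at 317, 243 and 326 at day 14, and at 229.9, 411 and 249 at day 21. The ages of 14 and 21 days lay below day 0, and SEC23B fell by 0.80 ± 0.23 by day 21 (limma adjusted p = 0.0394), while at day 7 the difference was -0.16 ± 0.23 (0.719). Its paralog SEC23A had 1526, 1684 and 1448 at day 21, against 1048, 1931 and 1560.5 at day 0, and the arrays overlapped (0.08 ± 0.21, limma adjusted p = 0.845). The outer cage subunits SEC31A and SEC13 differed by -0.52 ± 0.22 and -0.19 ± 0.20 (limma adjusted p = 0.134 and 0.578).

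In the COPI coat, 2 of 7 tested genes fell and all 7 had a difference below 0, COPB2 only by -0.04, with a median of -0.48. COPZ1, the zeta subunit, read 2002, 2032 and 1916 at day 0, 1248, 1334 and 1205 at day 7, 1199.9, 1126 and 1178 at day 14, and 1320.5, 1106 and 1179 at day 21. The 3 day 0 arrays stood together above the 9 later ones, and the day 14 arrays lay below the day 7 arrays. COPZ1 fell by 0.73 ± 0.14 by day 21 (limma adjusted p = 0.00651) and by 0.65 ± 0.14 by day 7 (limma adjusted p = 0.0144).

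COPG1, the gamma subunit, had 1087, 1239 and 1020.5 at day 21, against 1321, 2227 and 1778 at day 0. It fell by 0.64 ± 0.20, just under the threshold (limma adjusted p = 0.0499), and its day 0 arrays were spread widely, with replicate 2 the highest. COPB1, the beta subunit, lay just outside, at 1525, 2047 and 1832 at day 21 against 2381, 2714 and 2377 at day 0 (-0.48 ± 0.15, limma adjusted p = 0.0553). A second tested probe set of COPB1 differed by -0.01 ± 0.18 (limma adjusted p = 0.977). COPA, the alpha subunit, differed by -0.28 ± 0.20 (limma adjusted p = 0.406). The paralogs COPZ2 and COPG2, named after their values were seen, differed by -0.75 ± 0.41 and -0.08 ± 0.24 (limma adjusted p = 0.253 and 0.869).

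The TMED proteins are cargo receptors that cycle between ER and Golgi, and 1 of 6 fell by day 21. TMED4 read 2963, 3459 and 2998 at day 0, 1976, 2389 and 2203 at day 7, 2225, 2162 and 2529 at day 14, and 1837, 2056 and 2103 at day 21. All 9 later arrays lay below day 0, and TMED4 fell by 0.65 ± 0.14 by day 21 (limma adjusted p = 0.0128) and by 0.52 ± 0.14 by day 7 (limma adjusted p = 0.0407). Of its other 2 probe sets, one fell by 0.90 by day 21 (limma adjusted p = 0.0104) and the other differed by -0.08 (limma adjusted p = 0.857). TMED2 and TMED10, the best known members of the family, differed by -0.23 ± 0.12 and -0.24 ± 0.15 (limma adjusted p = 0.249 and 0.343). A second tested probe set of TMED10 went the other way, by 0.49 ± 0.22 at day 21 and 0.74 ± 0.22 at day 7 (limma adjusted p = 0.166 and 0.0512).

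None of the 5 ARF genes passed. ARF1, which recruits COPI to the Golgi, had 6161, 6328 and 6734 at day 21, against 7721, 8533 and 6639 at day 0, and day 21 replicate 3 lay above day 0 replicate 3 (-0.25 ± 0.14, limma adjusted p = 0.265). ARF4 and ARF6, which acts at the plasma membrane, differed by -0.32 ± 0.19 and -0.19 ± 0.16.

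RAB1A, the GTPase of transport from ER to Golgi, was read at 4276, 4494 and 4937 at day 0, at 3440.3, 3854 and 3659.9 at day 7, at 3028, 3151 and 2504 at day 14, and at 2598, 3192 and 2948 at day 21. The day 7 arrays lay between those of day 0 and those of days 14 and 21. RAB1A fell by 0.65 ± 0.14 by day 21 (limma adjusted p = 0.0126). Its second probe set differed by -0.47 ± 0.17 (limma adjusted p = 0.0863) and its other by 0.40 ± 0.31 (0.433), so that the mean of the 3 was -0.24 (limma adjusted p = 0.323). RAB2A, which works at the same step, and RAB18, a Rab of the ER and lipid droplets named after its values were seen, differed by -0.34 ± 0.15 and -0.47 ± 0.16 (limma adjusted p = 0.158 and 0.0804).

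**Figure D2:**
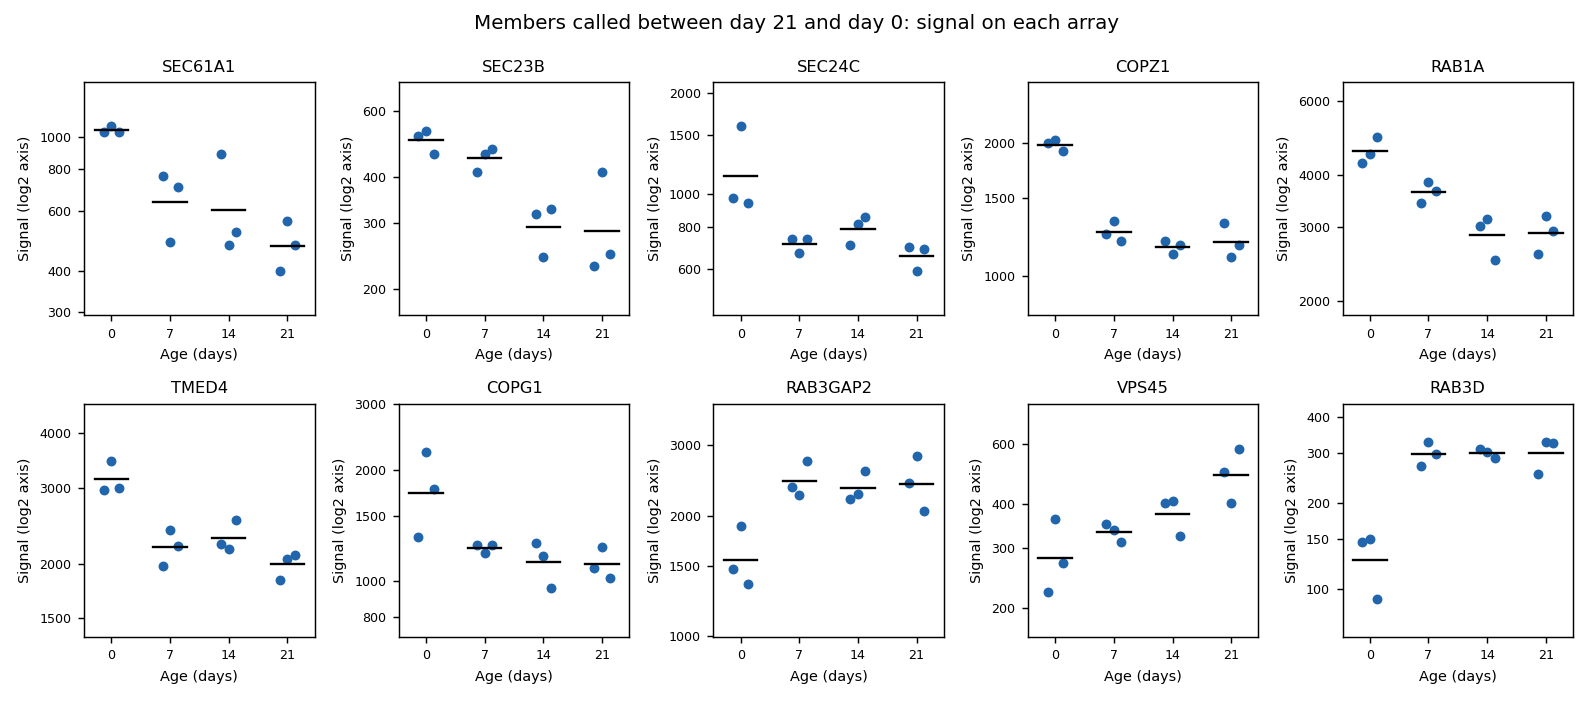
Signal on each array (points, log2 axis) at each age for the 10 genes that passed between day 21 and day 0, 1 panel per gene, with the geometric mean of the 3 arrays as a bar. SEC61A1, SEC24C, COPZ1, RAB1A, TMED4 and COPG1 are lower on all 9 later arrays than on any day 0 array, and RAB3D and RAB3GAP2 are higher.

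The largest rise was in RAB3D, a Rab of regulated exocytosis. It read 146, 150.1 and 92.5 at day 0, 269.5, 328 and 297 at day 7, 309, 301 and 286 at day 14, and 253, 327 and 323 at day 21. Every later array lay above every day 0 array. RAB3D rose by 1.24 ± 0.23 by day 21 (limma adjusted p = 0.00585) and by 1.23 ± 0.23 by day 7 (limma adjusted p = 0.00792). On the day 0 arrays it was close to the limit for testing, a mean signal of 90.3.

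RAB3GAP2, a subunit of the complex that switches RAB3 proteins off and RAB18 on, had 1474, 1878 and 1349 at day 0, 2357, 2256 and 2731 at day 7, 2196, 2264 and 2582 at day 14, and 2406, 2805 and 2048 at day 21. The later arrays again lay above day 0, with a rise of 0.63 ± 0.17 by day 21 (limma adjusted p = 0.0332) and 0.65 ± 0.17 by day 7 (limma adjusted p = 0.035). A second tested probe set of RAB3GAP2 differed by 0.37 ± 0.23 and -0.06 ± 0.23. RAB3GAP1, the catalytic subunit, named after its values were seen, differed by -0.07 ± 0.22 at day 21 (limma adjusted p = 0.863).

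VPS45, which assists the membrane fusion proteins (SNAREs) of endosomes and the trans-Golgi, read 223, 362 and 270.2 at day 0, 351, 338 and 312 at day 7, 404, 408 and 323 at day 14, and 498, 403 and 579 at day 21. The day 21 arrays lay above day 0, and the day 7 arrays overlapped it. VPS45 rose by 0.80 ± 0.22 by day 21 (limma adjusted p = 0.0329), with a difference of 0.25 ± 0.22 at day 7 (limma adjusted p = 0.512).

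RAB10 and RAB8A, Rabs linked to glucose transporter traffic, did not pass the threshold. RAB10 had 8332, 8659.5 and 11109 at day 21, against 7294, 7617 and 9612 at day 0, and the arrays overlapped (0.20 ± 0.17, limma adjusted p = 0.498). Its other tested probe sets differed by 0.46 ± 0.20, 0.52 ± 0.29 and -0.16 ± 0.20 (limma adjusted p = 0.157, 0.259 and 0.666). RAB8A had 137, 152 and 126 at day 21, against 193, 195 and 172 at day 0, with no overlap (-0.43 ± 0.28, limma adjusted p = 0.337). Among the Rabs of endosomes, RAB7A of late endosomes and RAB14 differed by 0.17 ± 0.16 and 0.11 ± 0.20 (limma adjusted p = 0.516 and 0.763).

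Among other values that did not pass, those of VPS72 and VPS13D were as large as values that did, with wider errors. VPS72, a subunit of chromatin remodelling complexes that the symbol rule takes in, differed by -0.98 ± 0.35 (limma adjusted p = 0.0834). VPS13D, a lipid transfer protein named after its values were seen, had 276, 329 and 169 at day 21, against 657, 465 and 559 at day 0, without overlap (-1.16 ± 0.35, limma adjusted p = 0.0512). SEC14L1, a member of a lipid-binding protein family, and SEC22C, of the SEC22 SNARE family, differed by -0.48 ± 0.25 and 0.53 ± 0.36 (limma adjusted p = 0.232 and 0.366). VPS52, of the GARP tether, differed by -0.62 ± 0.25 (limma adjusted p = 0.121), and its second tested probe set fell by 0.91 ± 0.27 (limma adjusted p = 0.0418).

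Read without a model, 24 of the 80 genes had all 3 day 21 arrays below all 3 day 0 arrays (30%, against 17.0% of all genes), and 6 had them all above (7.5%, against 15.2%). The median log2 difference of the 80 was -0.18, against -0.02 over all genes and 0.02 over all probe sets, with 55 below 0 and 25 above. Of the 24, 18 were among the 31 tested genes of the merged arm of ER translocation and transport between ER and Golgi. Of the 6 above, 1 was in that arm. The arm was merged after the values were seen, and its share was not tested against the 17.0% of all genes. The level of the genes on single arrays, each gene centred on its own mean, had a median of -0.07, -0.01 and -0.07 on the day 21 arrays, against 0.17, 0.33 and 0.12 on the day 0 arrays. Day 0 replicate 2 was the highest.

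**Figure D3:**
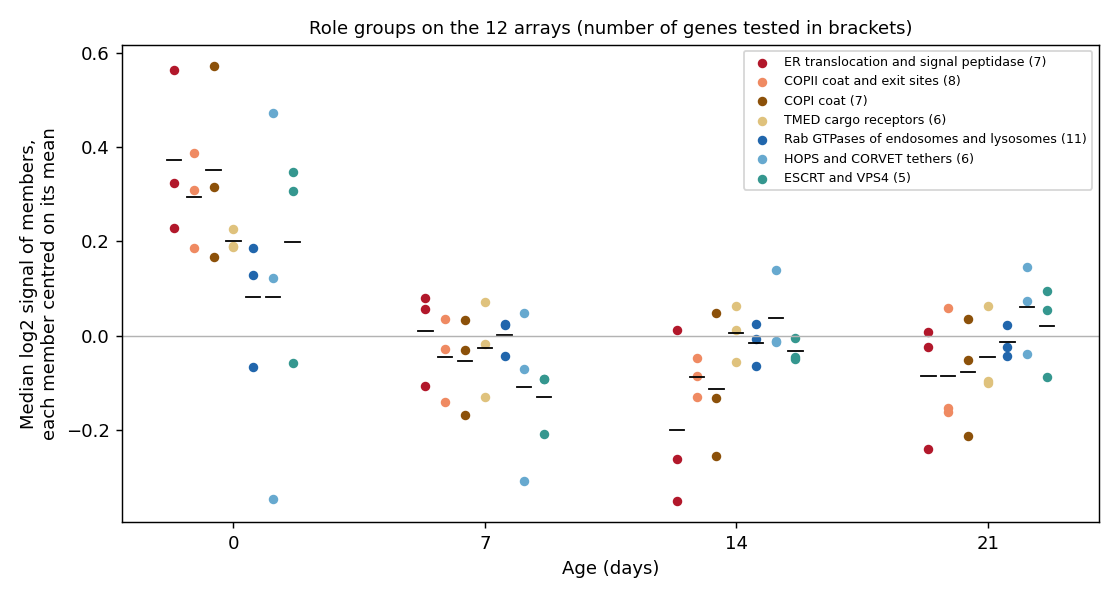
Median log2 signal of the tested genes of 7 role groups on each of the 12 arrays (points), each gene centred on its mean over the arrays, with the mean of 3 arrays as a bar. The points of the COPI coat lie at -0.05, 0.03 and -0.21 at day 21, against 0.17, 0.57 and 0.31 at day 0, and those of the endosomal Rabs at -0.04, -0.02 and 0.02, against -0.07, 0.19 and 0.13.

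By day 7, 4 genes had risen and 5 had fallen. The rises were 5% of the 80, against 6.51% of all genes and 5.76% of probe sets, and the falls 6.25%, against 5.21% and 3.64%. RAB3D, RAB3GAP2, COPZ1 and TMED4 are given above, and the comparison shares its day 0 arrays with that of day 21. The other 5 were TMED7, VPS26B and RAB2A, which fell, and VPS28 and RAB11A, which rose.

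TMED7, a cargo receptor of the same family as TMED4, was read at 2344, 1781 and 1825 at day 0, at 919.5, 738 and 1338 at day 7, at 1452, 1405 and 1166 at day 14, and at 1246, 1604 and 1464 at day 21. Day 7 lay below day 0 without overlap, and TMED7 fell by 1.02 ± 0.22 (limma adjusted p = 0.0135), with a difference of -0.46 ± 0.22 at day 21 (limma adjusted p = 0.188). Of the 3 other probe sets of TMED7, the 2 that were tested differed by -0.17 ± 0.17 and 0.13 ± 0.25 at day 7 (limma adjusted p = 0.576 and 0.797), and the first of them was passed over only because its mean signal was 1378, against 1381.

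RAB2A had 4791, 4127 and 3588 at day 0, 2769, 2804 and 2914 at day 7, 3108, 2908 and 3564 at day 14, and 3560.3, 3173 and 3117 at day 21. The day 7 arrays all lay below the day 0 arrays, and RAB2A fell by 0.55 ± 0.15 (limma adjusted p = 0.0359). A second probe set differed by 0.30 ± 0.26 (limma adjusted p = 0.509).

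VPS26B, a subunit of the retromer that recycles receptors from endosomes, read 672, 661 and 583 at day 0, 301, 380.3 and 508 at day 7, 458, 433 and 474 at day 14, and 629, 527 and 535 at day 21. It fell by 0.72 ± 0.20 at day 7 (limma adjusted p = 0.0418) and differed by -0.18 ± 0.20 at day 21 (limma adjusted p = 0.603), where the arrays overlapped day 0. VPS26A, its paralog, and VPS29, another retromer subunit, differed by 0.08 ± 0.27 and 0.17 ± 0.18 at day 7 (limma adjusted p = 0.894 and 0.598).

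VPS28, a subunit of ESCRT-I, which sorts ubiquitin-marked receptors for breakdown, had 885, 1181 and 1180.1 at day 0, 1693, 1863 and 1484 at day 7, 1639, 1913 and 1256 at day 14, and 1518, 1579 and 1731 at day 21. All 9 later arrays lay above day 0. VPS28 rose by 0.64 ± 0.19 at day 7 (limma adjusted p = 0.0497) and differed by 0.58 ± 0.19 at day 21 (limma adjusted p = 0.0624).

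RAB11A, the Rab of recycling endosomes, read 1962, 1489 and 1535 at day 0, 2633, 2387 and 2161 at day 7, 2043, 2224 and 2411 at day 14, and 2010.5, 2021 and 2086 at day 21. Day 0 lay below the later ages, and RAB11A rose by 0.53 ± 0.15 at day 7 (limma adjusted p = 0.0469). Its second probe set differed by -0.09 ± 0.18 (limma adjusted p = 0.791). Of the tethers of lysosomes, VPS33A differed by -0.92 ± 0.40 and VPS41 by -0.04 ± 0.29 at day 7 (limma adjusted p = 0.176 and 0.943). The geometric mean signal of VPS33A was 136.7 at day 0, then 72.4, 84.6 and 85.3. Only day 0 lifted it past the limit for testing of 90.3, so its difference is tied to that filter.

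**Figure D4:**
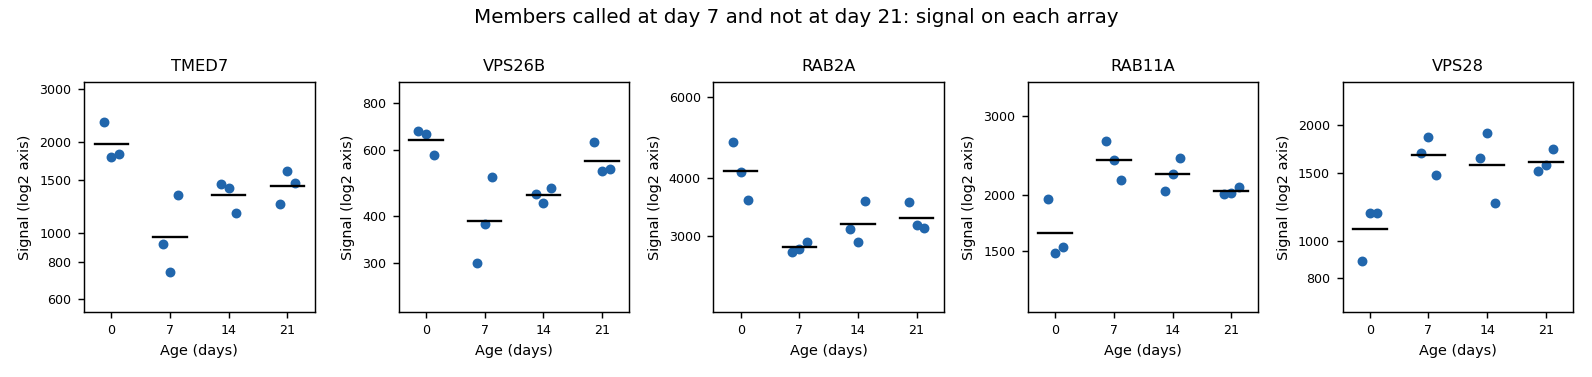
Signal on each array (points, log2 axis) at each age for the 5 genes that passed at day 7 and not at day 21, 1 panel per gene, with the geometric mean of the 3 arrays as a bar. TMED7, VPS26B and RAB2A are lower on all 3 day 7 arrays than on any day 0 array, and VPS28 and RAB11A are higher on all 9 later arrays than on any day 0 array.

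Read without a model, 22 genes had all day 7 arrays below all day 0 arrays (27.5%, against 17.0% of all genes) and 8 above (10%, against 15.3%). Of the 22, 14 were in the merged arm of 31 tested genes, and of the 8, 1 was. The median log2 difference was -0.17, against -0.04 over all genes.

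After the first week no vesicle traffic gene passed. From day 7 to day 14, limma called 0 of the 80 in either direction, with 5 at an unadjusted p under 0.05 (6.25%, against 6.93% of all genes), all lower at day 14, and among all probe sets 0 rose and 0.00694% fell. The lowest adjusted p was 0.667, for ARF2, an ARF GTPase of the Golgi with 1252, 1143 and 955 at day 14 against 2344, 2009 and 1443 at day 7. From day 14 to day 21, 0 genes were called and 0% of probe sets in either direction, with 1 gene at an unadjusted p under 0.05 (1.25%, against 2.93%). That gene, named after its values were seen, was SEC11C, a catalytic subunit of the enzyme that removes signal peptides, with 1109.6, 1159 and 1194 at day 21, against 734, 807 and 763 at day 14 (unadjusted p = 0.0187 and adjusted p close to 1 in limma).

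Whether the change from day 0 to day 7 differed from that of day 14 to day 21 was also tested. It passed for 0 of the 80 genes in limma, against 1.13% of all genes and 0.889% of probe sets, with 13 at an unadjusted p under 0.05 (16.2%, against 19.5% of all genes). The lowest adjusted p was 0.0958, for RAB3D. RAB28, a Rab outside the groups above, had 1378, 1859.7 and 1456 at day 0, 1954, 1946 and 1824 at day 7, 1430.4, 1369.9 and 1276 at day 14, and 1249, 1409.5 and 1521 at day 21. Its F test gave a limma adjusted p of 0.154.

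Other genes of the route were followed through a list of 110, of which 81 had a probe set and 79 were tested. Between day 21 and day 0, 3 rose (3.8%, against 7.36% of all genes) and 7 fell (8.86%, against 7.10%), and the median log2 difference was -0.14. The lowest p was for CLTC, the heavy chain of clathrin, with 1110.2, 1103 and 951 at day 21, against 3232, 2781 and 3118 at day 0. CLTC fell by 1.53 ± 0.17 (limma adjusted p = 0.000584), with no overlap between these ages.

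VAMP2, a SNARE on secretory and recycling vesicles, had 329.6, 432 and 396 at day 21, against 764, 932 and 774 at day 0, and fell by 1.10 ± 0.18 (limma adjusted p = 0.0032). GBF1, the exchange factor that activates ARF1 for COPI, had 452, 485 and 608 at day 21, against 894, 1146 and 1135 at day 0, and fell by 1.04 ± 0.19 (limma adjusted p = 0.00509). AP3M1, of the AP-3 adaptor for lysosomal cargo, had 1286, 1385 and 1279 at day 21, against 2744, 2510.3 and 2116 at day 0, and fell by 0.89 ± 0.16 (limma adjusted p = 0.00386). In each of the 3 genes the ages did not overlap.

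The other falls, named after their values were seen, were in AP1B1 of the clathrin adaptor AP-1, in SURF4, a receptor for soluble ER cargo, and in BET1L, a Golgi SNARE. The rises were in AP2B1 of the endocytic adaptor AP-2 (2.37 ± 0.48, limma adjusted p = 0.0079), in SNX6, a sorting nexin that works with retromer (0.77 ± 0.19, 0.0191), and in MCFD2, part of a cargo receptor at ER exit (0.83 ± 0.24, 0.0414). AP2B1 read 5483, 3783 and 8259.6 at day 21, against 876, 1569 and 901 at day 0, but 1709, 1154 and 5660.1 at day 14.

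**Figure D5:**
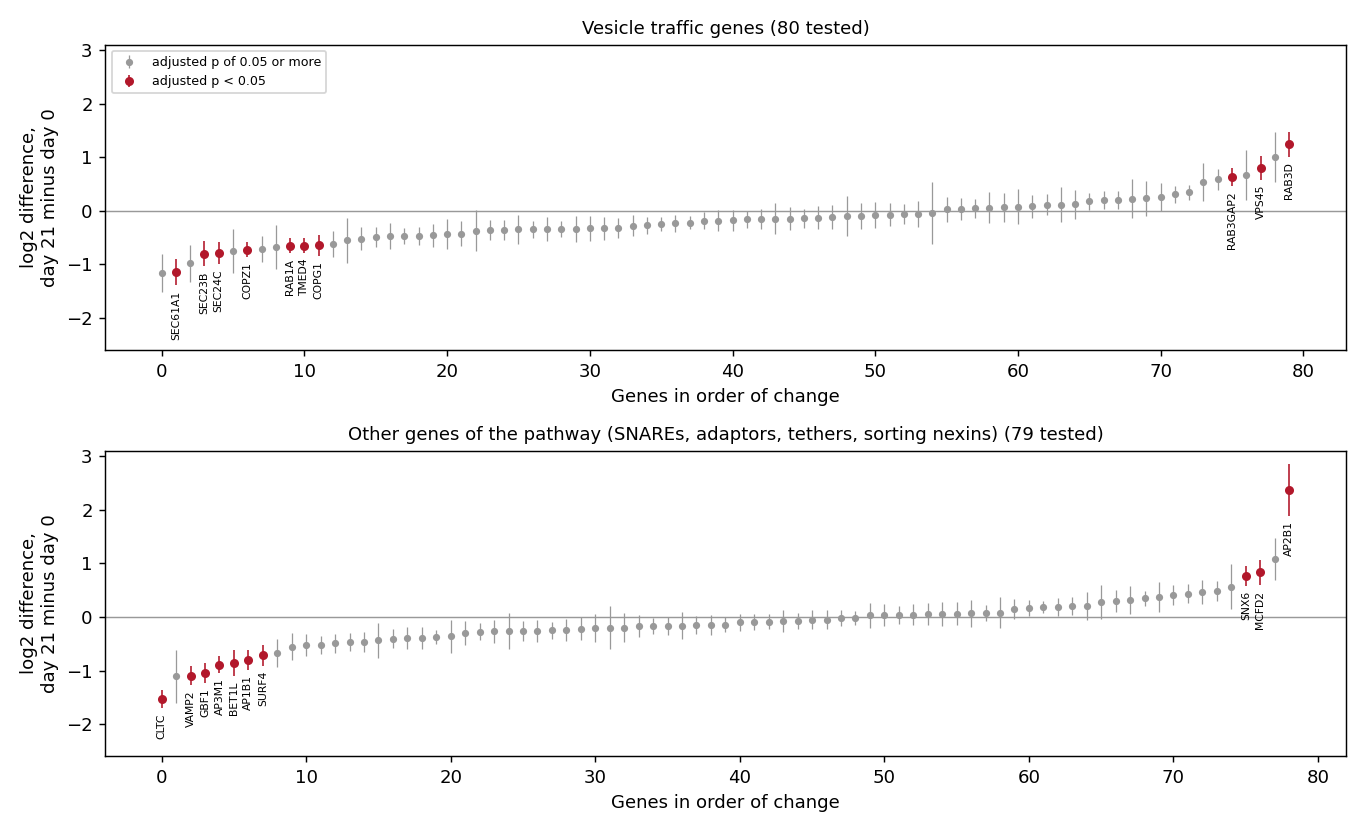
Log2 difference, day 21 minus day 0, of the 80 tested vesicle traffic genes (top) and of the 79 tested genes of the fixed list of other pathway genes (bottom), sorted by size, as points with SE bars and 3 arrays per age. Coloured points passed at a limma adjusted p under 0.05, which were 10 genes in each panel, 3 above 0 and 7 below.

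Several array measures moved with the day 0 group. The hybridization controls, added in fixed amount, had a mean log2 signal of 12.55 ± 0.13 (SD, n = 9) on the later arrays, against 12.20 ± 0.09 (SD, n = 3) on the day 0 arrays, and the poly-A spike-in RNAs had a log2 ratio of 3' over 5' signal of 0.51 ± 0.10 later, against 0.98 ± 0.53 at day 0 and 1.59 on day 0 replicate 2. Exact two-sided permutation tests gave p = 0.00455 and 0.00909 (both 0.00909 after Benjamini-Hochberg adjustment over 2 measures). Both measures were picked because they had moved with day 0 in earlier results of these data. The adjustment does not cover that choice, so these p-values only describe the difference. The summed signal of 8 muscle fibre markers of 10 listed was 305573.5 to 385914.3 at day 21, against 187352.8 to 263019.3 at day 0, and 4 of the 8 rose. That of 8 endothelial markers of 9 listed was 6153.8 to 8988.2 at day 21, against 5045.3 to 6090 at day 0, with 3 rises and 1 fall, while that of 9 fibroblast and matrix markers of 11 overlapped (49249.1 to 98332.7, against 50182.4 to 88693.5), with 0 called by limma. Of the other lists, limma called 1 of 7 macrophage markers higher (summed signal 2109.6 to 4293.2 at day 21, against 1718.1 to 2639.2 at day 0), 2 of 3 erythroid markers higher and 1 lower, 1 of 2 lymphocyte markers higher, and 0 of 5 adipocyte and 0 of 2 Schwann cell markers. The part of the marker sums in the changes was not tested.

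Scaling each array on the hybridization controls moved the median of all probe sets to -0.36 at day 21. The vesicle traffic genes then had a median of -0.56, with 7 above 0 and 73 below, against 25 and 55 without it, and 1 rise and 28 falls were called. Over all 14399 probe sets, 397 rises and 2486 falls were called at day 21 on that scale, against 952 and 705 without it. RAB3D kept its call on that scale (0.86, limma adjusted p = 0.0363), and VPS45 and RAB3GAP2 did not (0.42 and 0.25, limma adjusted p = 0.175 and 0.445). At day 7, RAB3D kept its rise (0.92, limma adjusted p = 0.0357), while VPS28, RAB11A and RAB3GAP2 no longer passed (0.33, 0.23 and 0.35, limma adjusted p = 0.232, 0.428 and 0.307). Some differences that had not passed changed sign, at day 21 those of SEC62 (-0.04), RAB11A (-0.07), RAB10 (-0.18), RAB7A (-0.21) and RAB14 (-0.27). With the spike ratio as a covariate, SEC24C, SEC23B, COPG1 and TMED4 no longer passed at day 21 (-0.50, -0.79, -0.43 and -0.58, limma adjusted p = 0.121, 0.108, 0.216 and 0.057), and 1 rise and 0 falls were called at day 7.

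Leaving out each of the 12 arrays in turn, RAB3D and COPZ1 passed at day 21 every time. SEC61A1, RAB1A and TMED4 missed only without day 21 replicate 1, with -1.02, -0.57 and -0.59 (limma adjusted p = 0.0535, 0.0569 and 0.055). SEC24C missed without day 0 replicate 2 or any day 21 array, at 0.0606 to 0.0772 as its limma adjusted p. VPS45 missed without replicate 1 or 3 of day 0 or of day 21 (0.0581 to 0.131), and RAB3GAP2 without replicate 1 or 3 of day 0, or 1 or 2 of day 21 (0.0702 to 0.109). SEC23B passed only without replicate 3 of day 0, replicate 2 or 3 of day 14, or replicate 2 of day 21, and COPG1 only without day 0 replicate 1, with limma adjusted p-values of up to 0.146 and 0.156 otherwise.

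At day 7, RAB3D again passed every time. COPZ1 missed without day 7 replicate 1 or 3 (limma adjusted p = 0.0561 and 0.0566), and TMED7 without day 7 replicate 1 or 2 (0.0534 and 0.0611). RAB2A and RAB3GAP2 passed in 7 of 12, TMED4 and VPS28 in 3, VPS26B in 2 and RAB11A in 1, with the highest limma adjusted p at 0.108, 0.121, 0.147, 0.167, 0.16 and 0.163 in that order. Without day 7 replicate 1 none of the 5 falls passed.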

How the data were processed

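The 12 arrays of pig skeletal muscle (3 per age) were deposited as linear intensity signals per probe set, which the authors made with MAS5 (version not given), per the submitters' processing notes. The 2% trimmed means were equal (500.1 on each array, spread 0.00514%), with medians of 145.4 to 171.7. No detection calls were used. The log2 of the deposited signal was taken with no further normalization. Of 24123 probe sets, 124 controls and the lowest 40% by mean log2 signal (limit 90.3) were left out, which left 14399. Symbols came from the array's annotation table (10099 probe sets with 1 symbol, 198 with several, 13826 with none), and all 87 symbols are in RefSeq's pig gene table. No coordinates or sequences are given, since the files name no genome build.

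The model, run in limma 3.58.1 under R 4.3.3, held 1 mean per age for all 12 arrays, with eBayes and a trend. Day 0 array measures were compared by exact permutation. The fit was tested on simulated data of the same design, where estimates centred close to the added changes and many of the smaller ones were not called. Figures were drawn with matplotlib 3.10.9.

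The genes, lists, role groups and tests were chosen with earlier results of these data known. Named with values were genes past the threshold, in each role group the brightest and the one of lowest F-test p, a fixed set of well-known members, and the 4 other pathway genes of lowest p. Labels say the replicates are biological but name no animals, so p-values measure the spread between these samples. Replicate numbers did not pair the arrays (correlations of deviations -0.198 to 0.112 over 18 same-number pairs). The alternatives were no filter, a 60% filter, quantile normalization, scaling on 27 hybridization control probe sets, an offset of 29.7, no trend, the poly-A spike ratio as covariate, a replicate block, only the 6 arrays compared, probe sets averaged per gene, and leaving out each array.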

Additional observations from a re-analysis of the deposited data

How the results depend on the processing

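Of 1884 values of the named genes under the alternatives, 1648 kept their sign and their side of the threshold, 155 lost a call, 35 gained one and 46 changed sign. None of the 46 had a limma adjusted p under 0.05 with or without the alternative, and their cause was not tested. On the hybridization control scale these were, at day 21, RAB11A (-0.073), VPS41 (-0.32), RAB7A (-0.21), RAB10 (-0.18), SEC62 (-0.039), SEC23A (-0.30), RAB14 (-0.27) and VPS26A (-0.26), and at day 7 VPS45 (-0.054), RAB28 (-0.0088), RAB10 (-0.079), VPS29 (-0.13), SEC62 (-0.19), ARF6 (-0.24) and VPS26A (-0.23). With the poly-A spike ratio as covariate they were ARF2 (0.10) and RAB14 (-0.17) at day 21, and VPS41 (0.32), VPS29 (-0.089), SEC14L1 (0.064), SEC23A (0.23) and ARF6 (-0.043) at day 7. With probe sets averaged they were ARF2 (0.27) and TMED10 (0.13) at day 21, and SEC63 (0.012) and TMED10 (0.34) at day 7. The other 20 came from leaving out an array, where the ranges over the 12 arrays were, at day 21, VPS41 (-0.29 to 0.26), VPS29 (-0.25 to 0.082), SEC23A (-0.16 to 0.28), ARF2 (-0.31 to 0.092), RAB14 (-0.13 to 0.28) and VPS26A (-0.11 to 0.47), and at day 7 RAB14 (-0.30 to 0.11), VPS26A (-0.16 to 0.43), VPS41 (-0.39 to 0.16), VPS29 (-0.0061 to 0.32), SEC23A (-0.38 to 0.064) and TMED10 (-0.16 to 0.041). The F test's count of 6 genes became 4 with no filter or quantile normalization, 23 scaled on the hybridization controls, 2 with no variance trend, 0 with the poly-A spike ratio as covariate, 3 with probe sets averaged per gene, and 2 to 6 with an array left out. Genes higher at day 21 against day 0 (3) became 2 with no filter, the 60% filter, no trend or averaged probe sets, 1 on the control scale, 0 with only the 6 arrays compared, and 1 to 3 with an array left out. Under the 60% filter RAB3D was too dim to be tested at either age, while VPS45 and RAB3GAP2 kept their calls at day 21. Genes lower (7) became 5 with no filter, 28 on the control scale, 3 with the covariate, 1 with only the 6 arrays, and 1 to 8 with an array left out (1 without day 21 replicate 1, 4 without day 0 replicate 2 or day 21 replicate 3). Over all probe sets, the falls at day 21 went from 705 to 2486 on the control scale and to 376 with the covariate. Genes higher at day 7 (4) became 2 with no filter or averaged probe sets, 1 on the control scale, without trend or with the covariate, 0 with the 6 arrays, and 1 to 3 with an array left out. Genes lower at day 7 (5) became 19 on the control scale, 2 with no trend, 0 with the covariate or the 6 arrays, 3 with averaged probe sets, and 0 to 8 with an array left out (0 without day 7 replicate 1). On the control scale the day 7 median over all probe sets was itself -0.31. The cause of these shifts in the counts was not tested. Both later weeks stayed at 0, and the difference between day 0 to 7 and day 14 to 21 was 0 to 1 with an array left out, the 1 being SEC11C (-1.29) without day 0 replicate 1. The median of -0.18 was -0.56 on the control scale and -0.26 to -0.18 with an array left out.

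With the replicate number as a block, the counts were 3 in the F test, 1 higher and 6 lower at day 21, and 1 higher and 2 lower at day 7. The numbers carry no pairing in the labels, and same-number arrays had a median correlation of -0.017, against 0.011 for different numbers. Of the 28 genes with several tested probe sets, 22 of 37 further probe sets had the sign of the brightest at day 21 and 23 at day 7. With 3 arrays per age, a missed threshold does not show that a gene kept its level.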
